A study of Mus musculus with 8 samples.

Results

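The fibrillar collagens are the collagens whose triple helices pack side by side into the striated fibrils of the corneal and scleral stroma. The 9 genes Col1a1, Col1a2, Col2a1, Col3a1, Col5a1, Col5a2, Col5a3, Col11a1 and Col11a2 were taken by their exact symbol from the 23420 named genes of the deposited table, and all 9 were present with reads. Corneal buttons and limbal rims, the ring of tissue at the edge of the cornea that houses the epithelial stem cells, were dissected from 16 eyeballs of 8-week-old wild type C57BL/6J mice and pooled by tissue. Total RNA was sequenced, and both groups are untreated, so they differ in the labels only by tissue. The labels name 4 samples per tissue, but the table has no value for any of them and holds 1 library per tissue. No spread between replicates could therefore be measured and no test between tissues was made. The intervals given are 95% intervals for counting error only, since sequenced copies of a molecule are not independent molecules.

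Type I collagen, made of 2 products of Col1a1 and 1 of Col1a2, is the bulk of corneal fibrils. Type V collagen, of the Col5a1, Col5a2 and Col5a3 products, is buried in the type I fibril, where it starts fibril assembly and limits fibril diameter, and the cornea is known to be rich in it. Type III collagen, a trimer of the Col3a1 product, mixes with type I in skin, vessel walls and other distensible tissue. Types II and XI, of Col2a1, Col11a1 and Col11a2, are the fibril collagens of cartilage and vitreous, and type XI chains can assemble with type V chains. In people, changes in the counterparts of Col5a1 and Col5a2 cause classical Ehlers-Danlos syndrome, and changes in that of Col3a1 the vascular form.

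The genes share a coding structure that was not used to choose them. In the longest coding transcript of GENCODE on GRCm38, 21 of 51 coding exons of Col1a1, 24 of 51 of Col3a1 and 31 of 67 of Col11a1 were exactly 54 bases long. Across the 9 genes this share lay between 41.2% for Col1a1 and 47.1% for Col3a1, against 0.674% of 199375 coding exons of 21924 protein-coding genes. Coding exons with a length that is a multiple of 9 made up 74.6% of those of Col5a3 and 88.5% of those of Col1a2, against 14.5% in all genes. An exon of 54 bases encodes 6 turns of the glycine-X-Y repeat that the triple helix needs. The first such exon in 4 of the genes is shown because it makes this repeat visible, with every in-frame glycine codon in capitals. They lie at chr11:94939904-94939957 (+) in Col1a1, chr6:4515481-4515534 (+) in Col1a2, chr1:45325360-45325413 (+) in Col3a1 and chr1:45434892-45434945 (-) in Col5a2.
Col1a1 coding exon 8: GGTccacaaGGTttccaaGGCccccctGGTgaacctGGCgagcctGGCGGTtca
Col1a2 coding exon 8: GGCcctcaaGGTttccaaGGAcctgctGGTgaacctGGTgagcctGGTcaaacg
Col3a1 coding exon 6: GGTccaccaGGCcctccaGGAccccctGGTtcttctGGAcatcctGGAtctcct
Col5a2 coding exon 6: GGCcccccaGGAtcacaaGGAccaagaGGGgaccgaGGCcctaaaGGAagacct
Glycine stands at every codon that begins a triplet of amino acids in all 4 exons, and the exon of Col1a1 holds 1 more, 7 glycine codons in all.

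Promoter windows from 250 bases before to 50 after the start were found in RefSeq (GRCm38.p6) for 6 of the 9 genes, Col1a2, Col3a1, Col5a1, Col5a3, Col11a1 and Col11a2. The windows of Col3a1, Col1a2 and Col5a1 are shown as 1 gene each of types III, I and V, with a large, an intermediate and no clear difference between the tissues. Capitals mark 3 motifs, searched on both strands, which do not overlap one another in these windows. They are CCAAT (the CCAAT box), then TATAAA (the TATA box) and last GGGCGG (the GC box). The windows are chr1:45311288-45311587 (+) for Col3a1, chr6:4505368-4505667 (+) for Col1a2 and chr2:27886175-27886474 (+) for Col5a1.
Col3a1: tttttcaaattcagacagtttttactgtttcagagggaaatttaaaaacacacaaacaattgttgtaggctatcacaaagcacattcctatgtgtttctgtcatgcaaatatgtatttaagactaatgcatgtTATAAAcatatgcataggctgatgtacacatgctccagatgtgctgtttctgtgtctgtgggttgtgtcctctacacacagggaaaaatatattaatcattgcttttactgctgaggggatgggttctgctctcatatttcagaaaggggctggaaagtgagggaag
Col1a2: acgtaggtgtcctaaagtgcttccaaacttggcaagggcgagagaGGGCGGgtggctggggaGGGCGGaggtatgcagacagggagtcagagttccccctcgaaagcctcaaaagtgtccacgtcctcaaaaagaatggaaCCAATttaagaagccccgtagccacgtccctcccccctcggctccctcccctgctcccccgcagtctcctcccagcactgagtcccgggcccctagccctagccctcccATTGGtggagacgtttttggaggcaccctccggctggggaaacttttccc
Col5a1: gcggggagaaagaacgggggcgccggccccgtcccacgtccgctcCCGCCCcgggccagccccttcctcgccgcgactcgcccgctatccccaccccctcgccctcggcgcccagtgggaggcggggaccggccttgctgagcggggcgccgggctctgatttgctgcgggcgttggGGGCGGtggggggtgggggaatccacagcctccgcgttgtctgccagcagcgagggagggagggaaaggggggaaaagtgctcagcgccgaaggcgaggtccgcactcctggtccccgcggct
The Col3a1 window had a GC content of 37.7%, below the median of 52.7% over all windows, and held TATAAA 117 bases before the start and neither of the other 2 motifs. The Col1a2 window, at 61% GC, held CCAAT 109 bases before the start and again, on the reverse strand, from the first base of the transcript, and GGGCGG 205 and 188 bases before it. The Col5a1 window, at 75% GC, held GGGCGG 73 bases before the start and, on the reverse strand, 205 bases before it. Of all 32817 windows, 37.4% held CCAAT, 13.6% TATAAA and 35.6% GGGCGG. Of the 6 collagen windows, 3 held CCAAT, 2 TATAAA and 5 GGGCGG. A match of letters is a description of the sequence and not a bound site.

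Read numbers were worked back from the mean of each gene over both libraries, together with the deposited comparison. Reads on named genes came to 26104317 for the button and 21182025 for the rim. The 9 fibrillar collagen genes together took 0.129% of the corneal reads (0.127 to 0.130) and 0.304% of the limbal reads (0.302 to 0.306). Normalised reads below are reads divided by the size factor of the library, 1.03 for the cornea and 0.967 for the limbus. The difference between tissues is the log2 ratio of normalised reads of limbus over cornea, and a library with 3 reads or fewer was counted as 3 reads in that ratio.

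All 9 genes passed the filter of a mean of at least 10 normalised reads. Of these, 5 were at least 2-fold higher in the limbus (Col3a1, Col2a1, Col5a3, Col11a2 and Col1a1), where 18% of the 13932 genes that passed met the same rule. Col2a1 passed the filter only through the limbus, at 1.93 corneal and 19.6 limbal normalised reads. The count was 5 without the filter and 4 with a filter on a mean of at least 50. None of the 9 was at least 2-fold higher in the cornea, where the share of all genes was 8.88%. By the interval, 6 lay above 0 (36% of all genes) and 1, Col5a2, lay below 0 (40.5% of all genes), while the intervals of Col5a1 and Col11a1 held 0. Their median log2 ratio was 1.25 and that of all 13932 genes -0.04, with quartiles of -0.50 and 0.53.

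**Figure D1:**
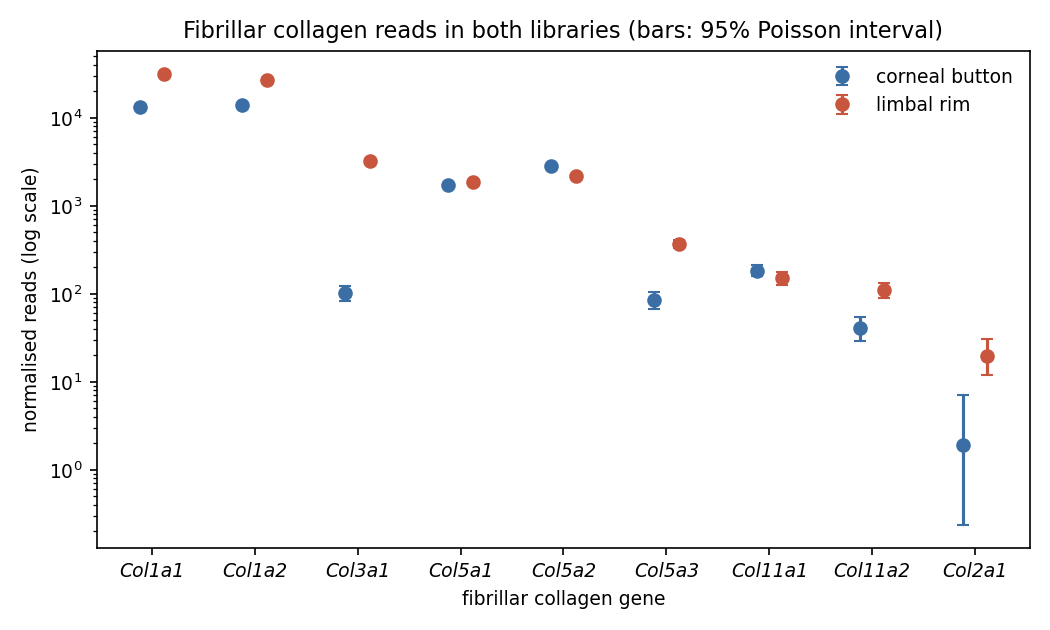
Normalised reads (log axis) of the 9 fibrillar collagen genes in the corneal button library (blue) and the limbal rim library (red), with 95% Poisson intervals of the count; where no bar shows, it is smaller than the point. Col3a1 stands apart, from 102.5 corneal to 3229 limbal normalised reads, whereas Col5a1 and Col5a2 lie close together in both.

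The type I genes had the most reads of the group in both libraries and were higher in the limbus. Col1a1 (chr11:94936224-94953042, +), the gene of the alpha 1 chain, had 13326 normalised reads in the button and 31709 in the rim. This is 2.38-fold higher in the limbus, a log2 ratio of 1.25 (1.22 to 1.28). Among all genes with reads, Col1a1 stood at rank 208 by reads in the cornea and at rank 59 in the limbus.
Col1a2 (chr6:4504814-4541544, +), the gene of the alpha 2 chain, had 14150 normalised reads in the button and 26927 in the rim. It was 1.90-fold higher in the limbus, a log2 ratio of 0.93 (0.90 to 0.96), just under the 2-fold line, which it passed at 1.13 when libraries were scaled to total reads. Libraries were also scaled to the reads of Dcn and Lum, of which Dcn was itself higher in the limbus at 0.64 and Lum was at -0.01. With this scaling Col1a1 was at 0.73 and Col1a2 at 0.41, so that Col1a1 no longer reached 2-fold. The RefSeq start used for the promoter window of Col1a2 lies downstream of the outermost GENCODE start of that gene. The intervals of both ratios lay apart, so the alpha 1 gene had the larger limbal excess of the pair beyond counting error.
Together, the type I genes took 0.109% of corneal and 0.268% of limbal reads.

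Col3a1 (chr1:45311538-45349706, +), the single gene of type III collagen, had the largest difference of the 9. The button had 106 reads and the rim 3124, or 102.5 and 3229 normalised reads. The limbal value was 31.5-fold the corneal one, a log2 ratio of 4.98 (4.70 to 5.27), and it stayed between 4.46 and 5.18 under every other scaling of the libraries. The gene went from rank 10386 by reads in the cornea to rank 1122 in the limbus. On chromosome 1 it is next to Col5a2, on the other strand, with 24614 bases between the ends of both genes, and Col5a2 was lower in the limbus. Per kilobase of exon, the ratio of Col3a1 to Col5a2 was 0.0355 in the cornea and 1.45 in the limbus.

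The 3 type V genes differed from each other in direction and size. Col5a1 (chr2:27886425-28039514, +), whose alpha 1 chain is present in most type V molecules, had 1746 normalised reads in the button and 1855 in the rim. Its log2 ratio was 0.09 (-0.01 to 0.18), and its direction depended on the scaling, from 0.29 (0.20 to 0.39) by total reads to -0.43 (-0.53 to -0.34) by the reads of the proteoglycan genes Dcn and Lum.
Col5a2 (chr1:45374321-45503282, -), the gene of the alpha 2 chain, had 2824 normalised reads in the button and 2178 in the rim. It was 1.30-fold higher in the cornea, a log2 ratio of -0.37 (-0.46 to -0.29), and it lay below 0 under every scaling tried, from -0.17 (-0.25 to -0.09) by total reads to -0.89 by Dcn and Lum. It was the only 1 of the 9 genes whose interval lay on the corneal side with the size factors of the table.
Col5a3 (chr9:20770050-20815067, -), the gene of the alpha 3 chain found in fewer tissues, had 84.2 normalised reads in the button and 371.1 in the rim. It was 4.41-fold higher in the limbus, a log2 ratio of 2.14 (1.80 to 2.50). The summed type V reads had a log2 ratio of -0.08 (-0.14 to -0.02) and turned above 0 where libraries were scaled to total reads, by which they took 0.0184% in the cornea and 0.0201% in the limbus.

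The type XI genes differed from each other. Col11a1 (chr3:114030540-114220718, +), the alpha 1 chain gene, had 182.8 normalised reads in the button and 149.9 in the rim. Its log2 ratio was -0.29 (-0.61 to 0.03), a difference not detectable at this depth with these size factors, although by Dcn and Lum it was -0.81 (-1.13 to -0.49).
Col11a2 (chr17:34039437-34066685, +), the alpha 2 chain gene, had 40.6 normalised reads in the button and 110.6 in the rim. It was 2.72-fold higher in the limbus, a log2 ratio of 1.44 (0.917 to 1.996), which was 0.93 and under 2-fold when scaled to Dcn and Lum. Summed, type XI reads had a log2 ratio of 0.22 (-0.04 to 0.49).
Col2a1 (chr15:97975602-98004695, -), the gene of type II collagen, was the least abundant, with 2 corneal and 19 limbal reads. With the 2 corneal reads counted as 3 its log2 ratio was 2.76 (0.99 to 5.16), and with the reads as they were it was 3.34 (1.29 to 6.49). The direction was outside counting error, but the gene passed the filter only through the limbus, and the size was known only to within a wide range.

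**Figure D2:**
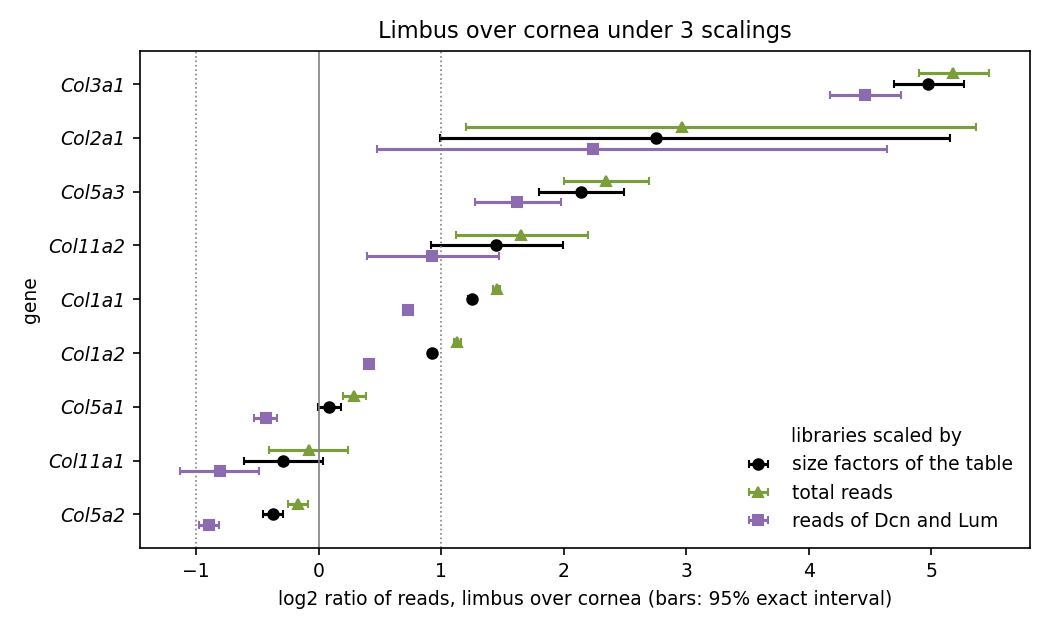
Log2 ratio of reads of limbus over cornea (horizontal axis) of each fibrillar collagen gene (vertical axis), with libraries scaled by the size factors of the table (black circles), by total reads (green triangles) or by the reads of Dcn and Lum (purple squares); bars are 95% exact intervals and dotted lines mark 2-fold. Col3a1 lies above 4 under all 3 scalings, while Col5a1 falls on either side of 0 depending on the scaling.

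Levels were compared between genes as reads per kilobase of exon, scaled to the depth of the library (RPKM), with the exons of all GENCODE transcripts of a gene joined. In the cornea Col1a1 was at 80.4 RPKM and Col1a2 at 45.1, followed by Col5a2 at 11.7 and Col5a1 at 8.14. The remaining corneal levels were 0.568 RPKM for Col11a1, 0.489 for Col5a3, 0.414 for Col3a1, 0.234 for Col11a2 and 0.0083 for Col2a1. Col11a1, Col5a3 and Col3a1 were neighbours in this order whose counting intervals overlapped. Such overlap alone does not decide their order in the cornea, which was not tested.
In the limbus Col1a1 was at 220.6 RPKM, Col1a2 at 98.96 and Col3a1 at 15.0, so that Col3a1 went from place 7 to place 3. Below it stood Col5a2 at 10.4 RPKM and Col5a1 at 9.98, whose intervals overlapped. Col5a3 followed at 2.49 RPKM, Col11a2 at 0.735 and Col11a1 at 0.537, the last pair with overlapping intervals, and Col2a1 was lowest at 0.097.

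**Figure D3:**
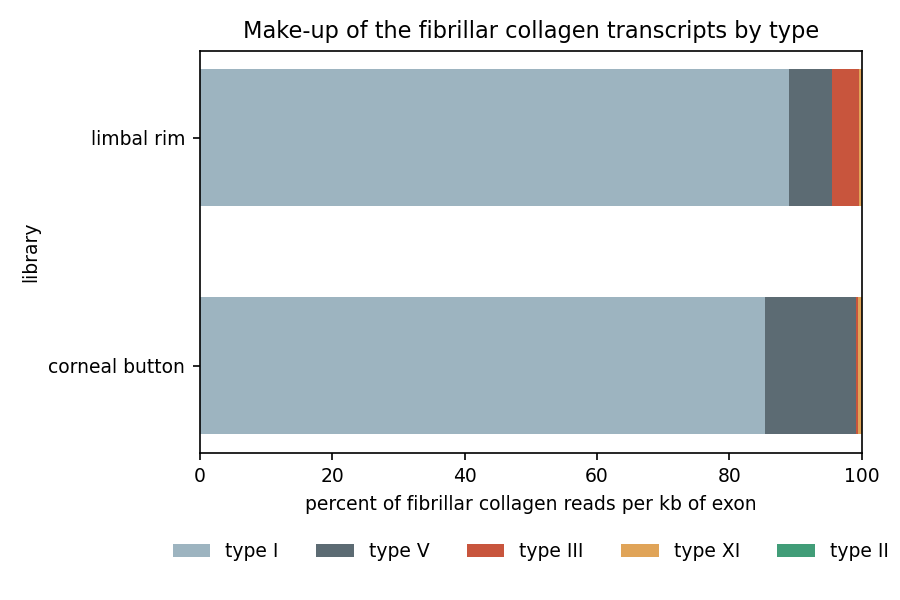
Share of each collagen type (colour) in the summed reads per kilobase of exon of the 9 fibrillar collagen genes, in percent, for the corneal button and the limbal rim library. Type V takes 13.8% of the corneal and 6.36% of the limbal bar, and type III 0.281% and 4.19%.

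Shares within the fibrillar collagen transcripts need no scaling between libraries. Per kilobase of exon, type I took 85.4% of them in the cornea and 89.1% in the limbus. Type V took 13.8% of the corneal and 6.36% of the limbal transcripts, and type III took 0.281% and 4.19%. Type XI took 0.546% and 0.354%, and type II took 0.0056% and 0.027%. The limbal transcripts thus held more type III and less type V for the same amount of all 9 genes.

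Ratios of chains within 1 library gave the same comparison pair by pair. The ratio of Col3a1 to Col1a1 per kilobase of exon was 0.00514 in the button and 0.0681 in the rim, a log2 difference of 3.73 (3.45 to 4.01) or 13.2-fold. The ratio of Col5a1 to Col1a1 was 0.101 in the button and 0.0452 in the rim, a log2 difference of -1.16 (-1.26 to -1.07). Relative to type I, Col5a1 was thus lower in the limbus whatever the scaling, although its own direction was not.
Within type I, the ratio of Col1a1 to Col1a2 was 1.78 in the button and 2.23 in the rim, a log2 difference of 0.32 (0.28 to 0.36). With coding length in place of exon length the same ratios were 0.889 and 1.11, so which chain had more transcripts in the cornea depended on the length used, while the difference between tissues did not. Within type V, the ratio of Col5a1 to Col5a2 went from 0.699 to 0.962, a log2 difference of 0.46 (0.34 to 0.59). The ratio of Col5a3 to Col5a1 went from 0.0601 in the button to 0.250 in the rim, a log2 difference of 2.05 (1.70 to 2.40). Within type XI, the ratio of Col11a1 to Col11a2 went from 2.43 in the button to 0.731 in the rim, a log2 difference of -1.73 (-2.33 to -1.13). By coding length these ratios were 4.33 and 1.30, so which chain had more transcripts in the limbus depended on the length used. All of these 6 differences lay outside counting error.

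In GENCODE, Col5a1 and Col5a3 overlap noncoding genes on the opposite strand, and Col1a2, Col3a1 and Col5a2 overlap small or provisional gene models on their own strand. None of these is named in the table, so their reads on the same strand cannot be told apart from those of the collagen genes. The library kit keeps the strand, but whether reads were counted by strand is not given in the sources used here, which leaves the same limit for the opposite-strand overlaps of Col5a1 and Col5a3.

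The other genes of the pathway were described by lists, as counts and medians. Of all 13932 genes, 18% were at least 2-fold higher and 8.88% at least 2-fold lower in the limbus, with a median of -0.04, and shares such as 2 of 7 for procollagen secretion lay near this background. Col24a1 and Col27a1, the remaining fibrillar collagen genes, whose chains have a shorter helix, were both higher in the limbus. Col24a1 had 35 corneal and 111 limbal reads, a log2 ratio of 1.76 (1.20 to 2.35), and Col27a1 had 83 and 391, a log2 ratio of 2.33 (1.99 to 2.69).
Of 7 fibril-associated collagens that passed the filter, which sit on the fibril surface, 4 were at least 2-fold higher in the limbus and the median log2 ratio was 1.92, or 0.95 over the 9 in the table without the filter. Among the 4, Col9a2, had 0 corneal and 29 limbal reads and passed the filter only through the limbus. Col14a1 was highest at 3.61, and Col9a1 was lowest at -0.46 (-1.18 to 0.25). Of 11 basement membrane and network collagens, 8 were at least 2-fold higher in the limbus and the median was 1.81. Their range ran from 0.05 for Col7a1, the anchoring fibril collagen, to 6.16 for Col15a1, with 4 corneal and 268 limbal reads. None of these 18 genes was at least 2-fold higher in the cornea.

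Genes that modify and fold procollagen in the endoplasmic reticulum differed less. Of 17, 6 were at least 2-fold higher in the limbus and 1 at least 2-fold lower, with a median log2 ratio of 0.77. P4ha3, a prolyl 4-hydroxylase subunit, had 0 corneal and 22 limbal reads, so that it passed the filter only through the limbus. With 3 reads in place of the corneal 0, its log2 ratio was 2.97 (1.24 to 5.35). By the lower end of the interval it was at least 2.35-fold higher in the rim. Glt25d2 (also Colgalt2), a collagen galactosyltransferase, was lowest at -1.79 (-2.14 to -1.46). Of 7 genes of procollagen secretion, 2 were at least 2-fold higher in the limbus and none at least 2-fold lower, and the median was 0.14. Creb3l1, a membrane-bound transcription factor of secretory cells, was highest at 3.07 and Sec23a, a coat protein of transport vesicles, lowest at -0.61.
After secretion, propeptides are cut off and fibrils are crosslinked. Of 7 genes of propeptide removal, 4 were at least 2-fold higher in the limbus and 1 at least 2-fold lower, with a median of 1.59. Adamts14, an N-propeptidase, had 0 corneal and 34 limbal reads and also passed the filter only through the limbus. Counted in the same way, its log2 ratio was 3.60 (1.93 to 5.95), or at least 3.81-fold higher in the rim. Tll2, a relative of the C-propeptidase Bmp1, had 25 corneal and 2 limbal reads and passed the filter only through the cornea. Its log2 ratio, as read, was -3.55 (-6.67 to -1.54). Of 5 lysyl oxidases, 4 were at least 2-fold higher in the limbus and the median was 2.50, from 0.71 for Lox to 4.02 for Loxl4.
The regulators of fibril diameter and assembly held large differences in both directions. Of 16, 12 were at least 2-fold higher in the limbus and 1 at least 2-fold lower, with a median of 2.33. Aspn, the gene of the small leucine-rich protein asporin, had 1 corneal and 196 limbal reads and a log2 ratio, as read, of 7.71 (5.22 to 13.0). Aspn and Comp, both among the 12, passed the filter only through the limbus. Kera, the keratan sulfate proteoglycan that marks the corneal stroma, was at -2.99 (-3.07 to -2.92), the opposite direction. Both directions held under every scaling of the libraries tried, none of which moved a ratio by more than 0.52. This bound covers scalings only and not the treatment of low reads. With the 1 corneal read counted as 3, the log2 ratio of Aspn was 6.13 (4.56 to 8.42).

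**Figure D4:**
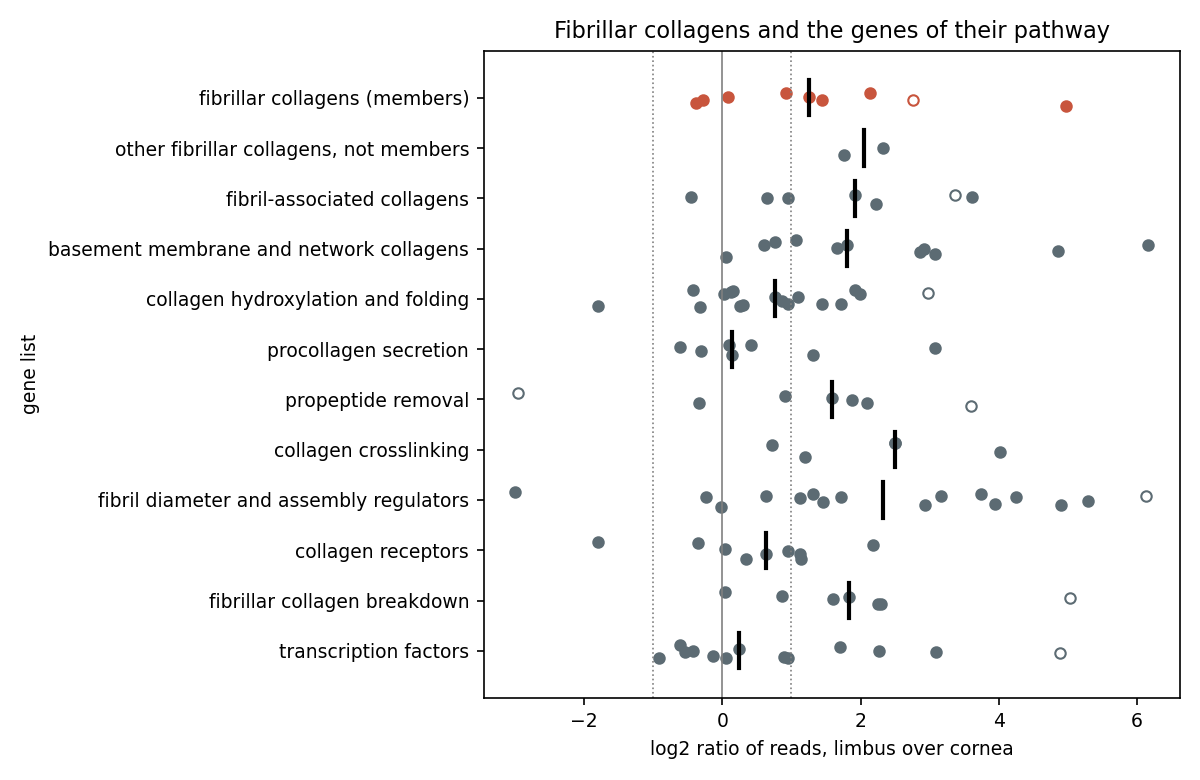
Log2 ratio of reads of limbus over cornea (horizontal axis) of each gene that passed the filter, by pathway list (vertical axis); bars mark list medians, dotted lines mark 2-fold, open circles are genes with 3 or fewer reads in 1 library, counted as 3, and small vertical offsets only separate points. The 9 fibrillar collagens (red) have a median of 1.25, with Col3a1 at 4.98.

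The rim and the button do not hold the same mix of cells, and in pooled tissue, fewer cells of a type cannot be told apart from less RNA per cell. Beside the marker counts below, 18% of all 13932 genes were at least 2-fold higher and 8.88% at least 2-fold lower in the limbus. Corneal epithelium markers were abundant in both libraries, at 2567560 normalised reads in the button and 1457090 in the rim, with Krt5 the gene with most limbal reads, and its members went both ways, 2 of 10 at least 2-fold higher in the limbus and 4 at least 2-fold lower. Keratocyte markers summed to 639750 and 280190 normalised reads, nearly all from Aldh3a1, which the epithelium also expresses, and 2 of 6 were at least 2-fold higher in the limbus and 2 at least 2-fold lower. Markers of fibroblasts of sclera and loose connective tissue summed to 26520 corneal and 43156 limbal normalised reads, mostly from Gsn. Of these 10, 7 were at least 2-fold higher in the limbus, some of which passed the filter only through the limbus. The lowest of the 10 had a log2 ratio of -0.58.
Markers of tissues next to the cornea were mostly higher in the limbal library. Blood vessel endothelium markers summed to 239.9 corneal and 4500 limbal normalised reads, led by Plvap, 6 of the 10 having 3 corneal reads or fewer, and 9 of 10 were at least 2-fold higher in the limbus. Skeletal muscle markers summed to 500.1 and 16188, led by Myh4, with 10 of 10 higher by that rule. Most of the muscle and blood vessel markers passed the filter only through the limbus. Some smooth muscle, pericyte and melanocyte markers did too. Of smooth muscle and pericyte markers, 8 of 9 were at least 2-fold higher in the limbus, although the sums of 5942 and 6936 were close because Notch3 took most of the corneal reads. Macrophage and leukocyte markers (1344 and 8039, led by Cd74, 9 of 10) and melanocyte markers (336.6 and 1724, led by Dct, 5 of 6) were also higher in the limbus.
Lens markers (1374 and 12275, led by Cryaa, 8 of 9) were present in both libraries and higher in the limbus. Schwann cell markers summed to 153273 and 106681, nearly all from Mal, with 5 of 8 at least 2-fold higher in the limbus. Cartilage and tendon markers summed to 321.2 and 1310, led by the tendon gene Tnmd, with 5 of 6 higher by the 2-fold rule. Among the cartilage matrix genes of this list, Matn1 and Hapln1 had 0 reads in both libraries and Acan had 0 and 3, whereas Comp had 4 corneal and 147 limbal reads and Chad had 3 and 224. The part of these cell types in the ratios of the fibrillar collagens was not tested.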

How the data were processed

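The authors pooled corneal buttons and limbal rims, sequenced total RNA, used CLC Genomics Workbench to map reads to GRCm38 (mm10), and normalized by the trimmed mean of M-values. They deposited 1 table. Its mean column is a deposited signal, the mean over libraries of reads divided by size factors. The table also holds the authors' own comparison, which is not printed here: the authors deposited a fold change on the log2 scale and its error, shrunken towards 0 and read as cornea over limbus from the tissues of the paper's heat maps, and p-values, which were not used.

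Reads were worked back from these columns. Of 40904 rows, 17484 (42.7%) name no gene and were left out of totals, and 5978 of 23420 named genes are listed at 0. For 17442 genes the mean gave whole reads of 2 libraries (102 limbus reads being worth 109 cornea reads, to within 0.00892). The mean allowed 1 pair of read numbers for 6143 genes, and otherwise the pair was taken that met the deposited fold change and error. Both were met within 0.001 for 17423 genes (99.9%), 19 were placed with their own dispersion, and for 1 gene the next pair missed by under 10 times as much. On simulated data, made with the dispersion, prior and size factors fitted to the table, all 17033 genes were found exactly. The simulation shows that reads are recovered where that model holds, and it cannot show that the table follows the model. Reads are thus derived and are not a deposited count table.

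Genes were kept at a mean of at least 10 normalized reads, and 3 reads were the floor of a library. Some genes passed only through 1 library, among them Col2a1, Col9a2, Col15a1, P4ha3, Adamts14, Tll2, Aspn, Comp, Chad, Lair1, Timp1 and Foxc2. Most of the skeletal muscle and blood vessel markers, and some markers of other lists, passed only through the limbus. Intervals (95%) are exact Clopper-Pearson for ratios and shares, Poisson for levels, and a normal approximation on the log scale for differences of chain ratios. No tests were run, since each tissue is 1 library. Exon and coding lengths are from GENCODE and promoters from RefSeq. Named were all 9 genes, the gene with the highest and the lowest ratio of each of 11 pathway lists, Col24a1 and Col27a1, and of each of 13 marker lists, 2 of which are not reported here, the sums and the gene with most limbal reads; Dcn, Lum, Notch3, Col9a2, Comp, Chad, Matn1, Hapln1 and Acan are named beyond this where a statement needed them, after their values were seen. Genes and lists were chosen with earlier results of these data known. Older symbols were matched through RefSeq, and Col21a1, Zp4 and Ca3 were not matched. Analyses used Python 3.11.15, numpy 2.4.6, scipy 1.17.1, pandas 2.3.3 and matplotlib 3.10.9.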

Additional observations from a re-analysis of the deposited data

How the results depend on the processing

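Scaling to total reads raised every log2 ratio by 0.21, so that the median of the 9 genes was 1.46 and 6 were at least 2-fold higher in the limbus; genes above 0 went from 47.8% to 59.8% of all genes. Centring on the median of all genes gave a median of 1.29, and a filter on a mean of 50 gave 1.09. Scaling to Dcn and Lum, chosen after seeing the data, lowered every ratio by 0.52 and gave a median of 0.73, with 3 of the 9 genes at least 2-fold higher. With the size factors of the table, Dcn was itself at 0.64 (0.62 to 0.66) and Lum at -0.01 (-0.06 to 0.03), so the shift came from Dcn. Under the scaling to Dcn and Lum, list medians under 0.52, those of procollagen secretion and of the transcription factors, fell below 0. Of 54 values of single genes of the 9 under these settings, the trimmed mean of M-values and pseudocounts of 1 and 10, 41 stayed within and 13 left the counting interval. The direction of Col5a1 was the only 1 of the 9 that turned, with Dcn and Lum. Without Col1a1 the genes took 0.0758% of corneal and 0.159% of limbal reads, and with the 13 most abundant genes left out of the totals 0.158% and 0.355%. With coding length in place of exon length, cornea and limbus ratios were 0.889 and 1.11 for Col1a1 to Col1a2, 0.00764 and 0.101 for Col3a1 to Col1a1, 0.504 and 0.693 for Col5a1 to Col5a2, and 4.33 and 1.30 for Col11a1 to Col11a2, and the limbal ratio of Col5a3 to Col5a1 was 0.212. Without the filter, 4 of 12 list medians moved, among them fibril-associated collagens to 0.95 and transcription factors to 0.83. No paired analysis was possible because the table holds 1 library per tissue and no numbered sample. Depth limits Col2a1 most, at 2 and 19 reads.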

Other observations

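Genes that bind, break down or are named in the control of fibrillar collagens were also measured. Of all genes tested, 18% were at least 2-fold higher in the limbus and 8.88% at least 2-fold lower, with a median of -0.04. Of 9 collagen receptors, 3 were at least 2-fold higher in the limbus and 1 at least 2-fold lower, and the median log2 ratio of limbus over cornea was 0.63. Lair1, an inhibitory receptor of leukocytes, had 8 corneal and 34 limbal reads, a log2 ratio of 2.18 (1.05 to 3.51). Itga2, the collagen-binding integrin chain of epithelia and platelets, had 308 and 83 reads, a log2 ratio of -1.80 (-2.16 to -1.44).

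Of 7 genes of fibrillar collagen breakdown and its inhibitors, 5 were at least 2-fold higher in the limbus and none at least 2-fold lower, with a median of 1.84. Timp1, a metalloproteinase inhibitor, had 2 corneal and 92 limbal reads and a log2 ratio, as read, of 5.62 (3.73 to 8.69). Mmp14, a membrane-bound collagenase, was at 0.04 (-0.02 to 0.11). Of 13 transcription factors named for fibrillar collagen genes, 4 were at least 2-fold higher in the limbus and none at least 2-fold lower, with a median of 0.24. Foxc2, a forkhead factor of the eye's mesenchyme, had 1 corneal and 83 limbal reads and a log2 ratio, as read, of 6.47 (3.95 to 11.8). Sp1, which binds GC boxes, was lowest at -0.91 (-0.995 to -0.83).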
